A study of Mus musculus with 46 samples.

Results

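Transcripts of T cells and natural killer (NK) cells were followed in RNA of sorted cells from mouse gliomas, microglia (MG) on one side and macrophages derived from the bone marrow (BMDM) on the other, as a sign of other cells in the sort. The set held 10 genes chosen by symbol, namely Cd3e, Cd3g, Cd8a, Ctla4, Il2rb, Nkg7, Gzma, Gzmb, Prf1 and Klrd1. All 10 were found among the 23329 gene symbols of the count table.

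The data came from 23 mice and 46 libraries, with 1 MG and 1 BMDM library from each mouse. All mice, controls included, were of the nTVA Ink4a/Arf KO/KO background, in which the receptor for an avian virus is made under the nestin promoter and both copies of Ink4a/Arf are lost. All carried gliomas started by injecting DF1 cells, a chicken fibroblast line, with RCAS-PDGFB-HA into the right frontal cortex at 5 to 6 weeks of age. The 7 stages were vehicle (4 mice), 5 days of the CSF1R inhibitor BLZ945 (4 mice), 5 days of ionizing radiation or IR (2 mice), 5 days of IR and BLZ945 (3 mice), and tumours that had recurred after BLZ945 (2 mice), after IR (4 mice) or after both (4 mice). Doses were not given in the labels. MG had been sorted as CD45+CD11b+Ly6C-Ly6G- cells without CD49d and BMDM as the same cells with CD49d, the integrin chain encoded by Itga4. The gate listed no T or NK cell marker for exclusion, but it kept only cells with CD11b and without Ly6C. Any that passed it were placed in MG or BMDM by CD49d, and how CD49d divided them was not tested.

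T cells recognise antigen through a receptor that signals by way of the CD3 chains, and cytotoxic T cells add the coreceptor CD8. NK cells lack that receptor and use others, such as the lectin-like CD94 encoded by Klrd1. Both kinds kill by releasing perforin and granzymes from granules, and mature NK cells and some activated T cells carry CD11b, one of the antigens of the gate.

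Total counts ran from 3007379 to 16993474 per library. A floor of 3 counts, used where a count of 0 was met, was worth 0.177 to 0.998 CPM, the level unit used throughout, in which a gene's count is scaled to the library total after TMM adjustment. Itga4 stood at 1.43 to 10.1 CPM in MG and 30.7 to 188 CPM in BMDM, and P2ry12, a microglial receptor, at 387 to 6033 CPM in MG and 12 to 452 CPM in BMDM. Cdkn2a, the gene at the Ink4a/Arf locus, did not exceed 2.44 CPM in any library. A total of 6 libraries are doubted below. In these fewer than 11000 genes had 10 or more counts, or the sex-linked genes of the MG and BMDM library of 1 mouse (65698) did not match. They were BMDM of mice 122, 124 and 65698 and MG of mice 65698, 65971 and 68344. Of the 23 mice, 5 had numbers of 2 or 3 digits (41 and 78 in vehicle, 122, 123 and 124 in BLZ945 at 5 days) and the others 5 digits. What the style of the number marks was not given in the labels.

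The 10 transcripts were present mainly in BMDM and were at or near 0 in MG. Summed over the 10 genes, BMDM libraries held 4.8 to 485.7 CPM (median 78.1) and MG libraries 0.4 to 17.4 CPM (median 3.3). Within mice, BMDM exceeded MG in 22 of 23 mice for Klrd1 and Il2rb, in 20 for Nkg7 and Ctla4, in 18 for Cd3g and Gzmb, in 17 for Gzma, in 16 for Cd8a and in 14 for Cd3e and Prf1. MG was higher in 1 to 4 mice for each gene. Any others were equal, among them 6 mice each for Cd3e and Cd8a and 5 for Prf1. Because RNA was taken from bulk sorted cells, fewer cells of a type and less RNA per cell cannot be told apart. In edgeR's quasi-likelihood test with Benjamini-Hochberg adjustment over 15901 genes, the mean MG minus BMDM difference over the 7 stages was negative and passed for 8 of the 10, where 15.4% of all genes tested were lower in MG. Of the 8, Gzma, Prf1, Klrd1 and Il2rb had 1 or more stages without a count in MG, and Cd3g, Nkg7, Gzmb and Ctla4 had none. The remaining 2, Cd3e and Cd8a, had no count in BMDM after IR as well as in 1 or more MG stages, and the fit gave their mean over stages no usable standard error. The count was 3 (Nkg7, Gzma and Klrd1) without BMDM of mouse 65972, which leaves BMDM after IR without a count of the other 7.

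A fit with 7 stage terms and 1 population term, chosen after seeing the data, was defined for every gene, and all 10 transcripts were lower in MG (15.7% of genes tested). On the log2 scale the MG minus BMDM difference ran from -3.45 ± 0.79 (SE) for Cd3g (adjusted p by edgeR 0.000515) to -5.57 ± 0.78 for Prf1 (1.77e-07), with -3.72 ± 0.97 for Cd3e (0.00233), -5.30 ± 0.82 for Cd8a (1.07e-06) and -4.23 ± 0.51 for Klrd1 (5.01e-09). With the mouse as a replicate block all 10 were again lower in MG, and all 10 without the 6 doubted libraries. Without the 5 mice of short number 9 remained, with Cd3e lost.

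**Figure D1:**
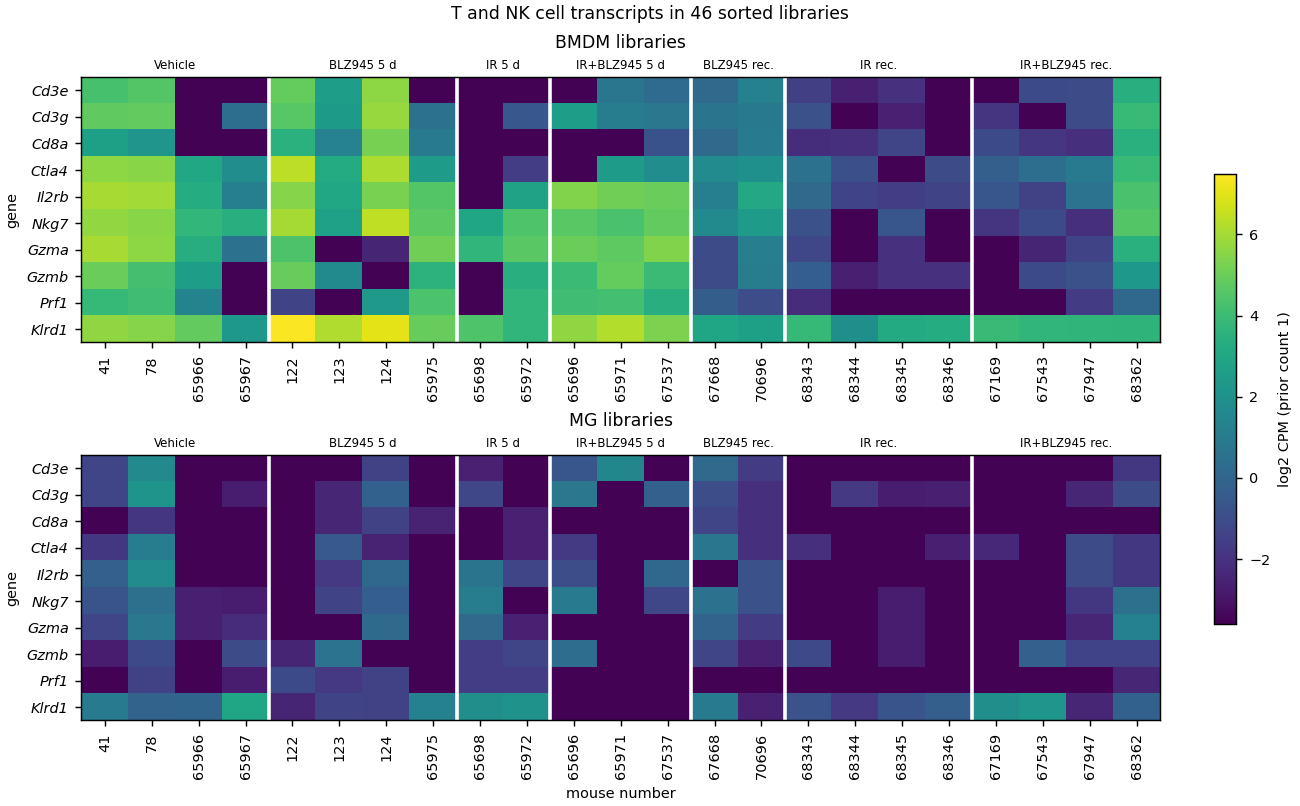
Level of the 10 transcripts in each library as log2 CPM with a prior count of 1 (colour scale), with genes in rows and mice in columns ordered by stage, BMDM above and MG below. BMDM of vehicle and 5-day mice hold the brightest cells, BMDM of recurrent tumours are darker apart from Klrd1 and mouse 68362, and MG are dark in most cells.

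The chains of the T cell receptor complex were read first. Cd3e (chr9:44998740-45009627, minus strand, mm10 with GENCODE M21 gene models, 8 merged exons) encodes the epsilon chain of CD3. In BMDM of vehicle mice it stood at 19.5 and 22.7 CPM in mice 41 and 78 and at 0 in mice 65966 and 65967. Among mice given BLZ945 for 5 days it stood at 29.2, 6.03 and 49.4 CPM in mice 122, 123 and 124 and at 0 in mouse 65975. The levels thus split by the style of the mouse number within both stages, and BMDM of mice 122 and 124 are doubted libraries. Cd3g, Cd8a, Ctla4 and Klrd1 split so in both stages too, and in vehicle all 10 transcripts did. The 5 BMDM libraries with IR at 5 days, alone or with BLZ945, held 0 to 1.62 CPM of Cd3e. BMDM of recurrent tumours stayed at or under 2.37 CPM of it apart from mouse 68362 (IR and BLZ945) at 10.2 CPM. In MG, Cd3e was at 0 in 14 of 23 libraries and reached 2.96 CPM in vehicle mouse 78. Cd3e shares 135 exon bases with the antisense gene Gm48719, whose reads cannot be told apart because the strand setting of the counting was not given in the sources used here.

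Cd3g (chr9:44969572-44980431, minus strand, 6 merged exons), a nearby gene for the gamma chain of CD3, showed the same split. Its BMDM levels were 27.3, 28.6, 0 and 1.24 CPM in vehicle mice 41, 78, 65966 and 65967. They were 24.2, 5.43, 54.6 and 1.36 CPM in mice 122, 123, 124 and 65975 after 5 days of BLZ945. Unlike Cd3e it was above 0 in all 3 mice given IR and BLZ945 for 5 days, at 5.84, 2.09 and 1.69 CPM. With IR alone it was at 0 and 0.583 CPM, and recurrent BMDM stayed at or under 1.78 CPM except in mouse 68362 at 15.2 CPM.

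Cd8a (chr6:71373427-71379173, plus strand, 4 merged exons) encodes the alpha chain of the CD8 coreceptor, which is also made by some dendritic cells. Its BMDM levels in vehicle were 6.49, 4.43, 0 and 0 CPM in the order of mice above. With 5 days of BLZ945 they were 11.0, 2.38, 37.6 and 1.86 CPM. The highest value of any library was that of mouse 124. BMDM with IR at 5 days, alone or with BLZ945, held 0 to 0.483 CPM, recurrent BMDM stayed at or under 1.86 CPM, and mouse 68362 again stood apart at 10.7 CPM. All 23 MG libraries together held 13 counts of Cd8a, and 16 of them held none.

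Ctla4 (chr1:60887000-60915832, plus strand, 7 merged exons), an inhibitory receptor of activated and regulatory T cells, was found in BMDM of all 4 vehicle mice, at 48.8, 46.6, 8.05 and 3.51 CPM. With 5 days of BLZ945 it stood at 84.6, 9.26, 69.7 and 5.50 CPM. It was at 0 in mouse 65698 and 0.250 CPM in mouse 65972 with IR, and at 0, 5.56 and 3.54 CPM with IR and BLZ945 at 5 days. Recurrent BMDM lay between 0 and 3.89 CPM, with mouse 68362 at 14.8 CPM. The vehicle libraries of BMDM and MG did not overlap, since MG of vehicle held 0 to 2.00 CPM.

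Il2rb (chr15:78479256-78495271, minus strand, 11 merged exons) encodes the beta chain of the receptors for interleukins 2 and 15, on which NK cells and memory CD8 T cells depend. In BMDM it stood at 65.6, 62.8, 9.62 and 2.21 CPM in vehicle and at 45.3, 8.32, 38.6 and 22.8 CPM after 5 days of BLZ945. Under IR and BLZ945 at 5 days the 3 mice lay close together, at 42.6, 34.4 and 31.5 CPM, all of them mice with long numbers in which Cd3e was at or under 1.62 CPM. With IR alone Il2rb stood at 0 and 6.83 CPM. Recurrent BMDM lay between 0.242 and 8.54 CPM, and mouse 68362 at 19.8 CPM.

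The granule genes follow. Nkg7 (chr7:43437073-43438249, plus strand, 4 merged exons), a granule membrane protein of NK and cytotoxic T cells, was above 0 in all 13 BMDM libraries of vehicle and 5-day mice. It stood at 51.7, 46, 13.5 and 10.4 CPM in vehicle, at 64.9, 6.71, 87.1 and 25.7 CPM after BLZ945, at 7.47 and 21.8 CPM after IR, and at 25.2, 19.6 and 28.2 CPM after both. In vehicle the lowest BMDM library exceeded the highest MG library, which held 1.33 CPM. Recurrent BMDM held 0 to 5.50 CPM, and mouse 68362 held 23.1 CPM.

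Gzma (chr13:113093825-113100981, minus strand, 6 merged exons), Gzmb (chr14:56258838-56262260, minus strand, 5 merged exons) and Prf1 (chr10:61297833-61304680, plus strand, 3 merged exons) encode granzyme A, granzyme B and perforin. These 3 effectors of killing had Spearman's rho of 0.75 to 0.81 with each other over BMDM, and of 0.54 to 0.78 after stage means were subtracted. The 150 bases before the RefSeq start of each (GRCm38.p6, coding strand) are shown because all 3 hold the same short motif. Bases just after the RefSeq start were found in a GENCODE M21 transcript of the gene for Gzma. They were not found for Gzmb and Prf1, so the starts of these genes were not matched to the gene models. Capitals mark the 6 letters TGTGGT, bound by RUNX factors, or their reverse complement ACCACA, and in Prf1 also the 6 letters AGGAAG of ETS factors.
Gzma, chr13:113100982-113101131, minus strand: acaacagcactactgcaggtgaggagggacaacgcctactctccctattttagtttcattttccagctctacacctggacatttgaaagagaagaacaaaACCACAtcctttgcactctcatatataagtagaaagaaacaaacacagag
Gzmb, chr14:56262335-56262484, minus strand: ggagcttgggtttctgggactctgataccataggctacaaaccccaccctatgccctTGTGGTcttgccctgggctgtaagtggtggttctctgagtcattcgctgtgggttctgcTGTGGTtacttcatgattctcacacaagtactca
Prf1, chr10:61297686-61297835, plus strand: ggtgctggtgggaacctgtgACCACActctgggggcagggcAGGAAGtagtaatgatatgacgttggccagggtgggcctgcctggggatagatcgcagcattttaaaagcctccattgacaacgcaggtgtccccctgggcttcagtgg
Read on both strands, TGTGGT was found in this window for 4 of the 8 members in the promoter table (Gzma, Gzmb, Prf1 and Nkg7) and in 8.40% of all 32851 promoters. AGGAAG was found for Cd3e, Ctla4, Nkg7 and Prf1 against 19.7% of promoters, and the T-box letters GGTGTGA for Nkg7 alone against 1.92%. The 3 motifs do not overlap in these windows, and a match of letters is a description and not a bound site.

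In BMDM Gzma stood at 67.0, 49.1, 9.94 and 1.37 CPM in vehicle mice 41, 78, 65966 and 65967. After 5 days of BLZ945 it stood at 20.8, 0, 0.0987 and 34.1 CPM in mice 122, 123, 124 and 65975, so that its highest level was in the mouse without Cd3e counts and 2 of the 3 mice with Cd3e had next to none. After IR it stood at 13.0 and 25.3 CPM and after IR and BLZ945 at 32.4, 26.9 and 41.5 CPM. Recurrent BMDM held 0 to 2.12 CPM, and mouse 68362 held 10.8 CPM.

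Prf1 too was highest in mouse 65975 among the mice given BLZ945, with 14.1, 16.9, 2.60 and 0 CPM in vehicle and 0.315, 0, 5.23 and 20.2 CPM after BLZ945. It stood at 0 and 13.0 CPM after IR and at 17.2, 18.3 and 10.3 CPM after both. Recurrent BMDM held 0 to 0.984 CPM of Prf1, mouse 68362 included. Gzmb stood at 32.1, 18.8, 6.00 and 0 CPM in vehicle, at 30.6, 3.23, 0 and 11.9 CPM after BLZ945, at 0 and 10.3 CPM after IR, and at 15.7, 29.7 and 15.4 CPM after both. Its recurrent BMDM libraries held 0 to 2.03 CPM, against 4.85 CPM in mouse 68362.

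Klrd1 (chr6:129591782-129598775, plus strand, 7 merged exons) encodes CD94, which pairs with NKG2 proteins on NK cells and some CD8 T cells. Among the 10 genes it was the one with counts in every BMDM library. It stood at 49.9, 44.1, 28.4 and 4.95 CPM in vehicle, at 175, 71.4, 133 and 30.1 CPM after BLZ945, at 21.4 and 12.8 CPM after IR and at 50.3, 75.3 and 39.0 CPM after both. Its BMDM levels in recurrence were 7.79 and 6.51 CPM after BLZ945, 14.4, 3.75, 8.96 and 9.50 CPM after IR, and 14.6, 13.2, 12.4 and 12.3 CPM after both. Mouse 68362, high in the others, was the lowest of its group here. In MG Klrd1 reached 7.43 CPM in vehicle mouse 65967, above the BMDM library of that mouse, and all 3 MG libraries of IR and BLZ945 at 5 days held none.

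Ordered by the mean in BMDM, Klrd1 stood at 102 ± 64.2 CPM (SD, n = 4) after 5 days of BLZ945, 54.9 ± 18.6 (n = 3) after IR and BLZ945, 31.9 ± 20.1 (n = 4) in vehicle, 17.1 ± 6.03 (n = 2) after IR, 13.1 ± 1.04 (n = 4) in recurrence after both, 9.15 ± 4.35 (n = 4) in recurrence after IR and 7.15 ± 0.903 (n = 2) in recurrence after BLZ945. Each stage overlapped the next in this order, so neighbours did not differ beyond their spread, while the 4 libraries of BLZ945 at 5 days (30.1 to 175 CPM) lay above all 10 recurrent libraries (3.75 to 14.6 CPM). For Il2rb the order was IR and BLZ945 at 36.2 ± 5.76 CPM, vehicle at 35.1 ± 33.8, BLZ945 at 28.8 ± 16.6, recurrence after both at 5.54 ± 9.55, recurrence after BLZ945 at 5.37 ± 4.49, IR at 3.42 ± 4.83 and recurrence after IR at 0.487 ± 0.401. Neighbours in that order overlapped as well, and the mean of recurrence after both rested on mouse 68362.

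**Figure D2:**
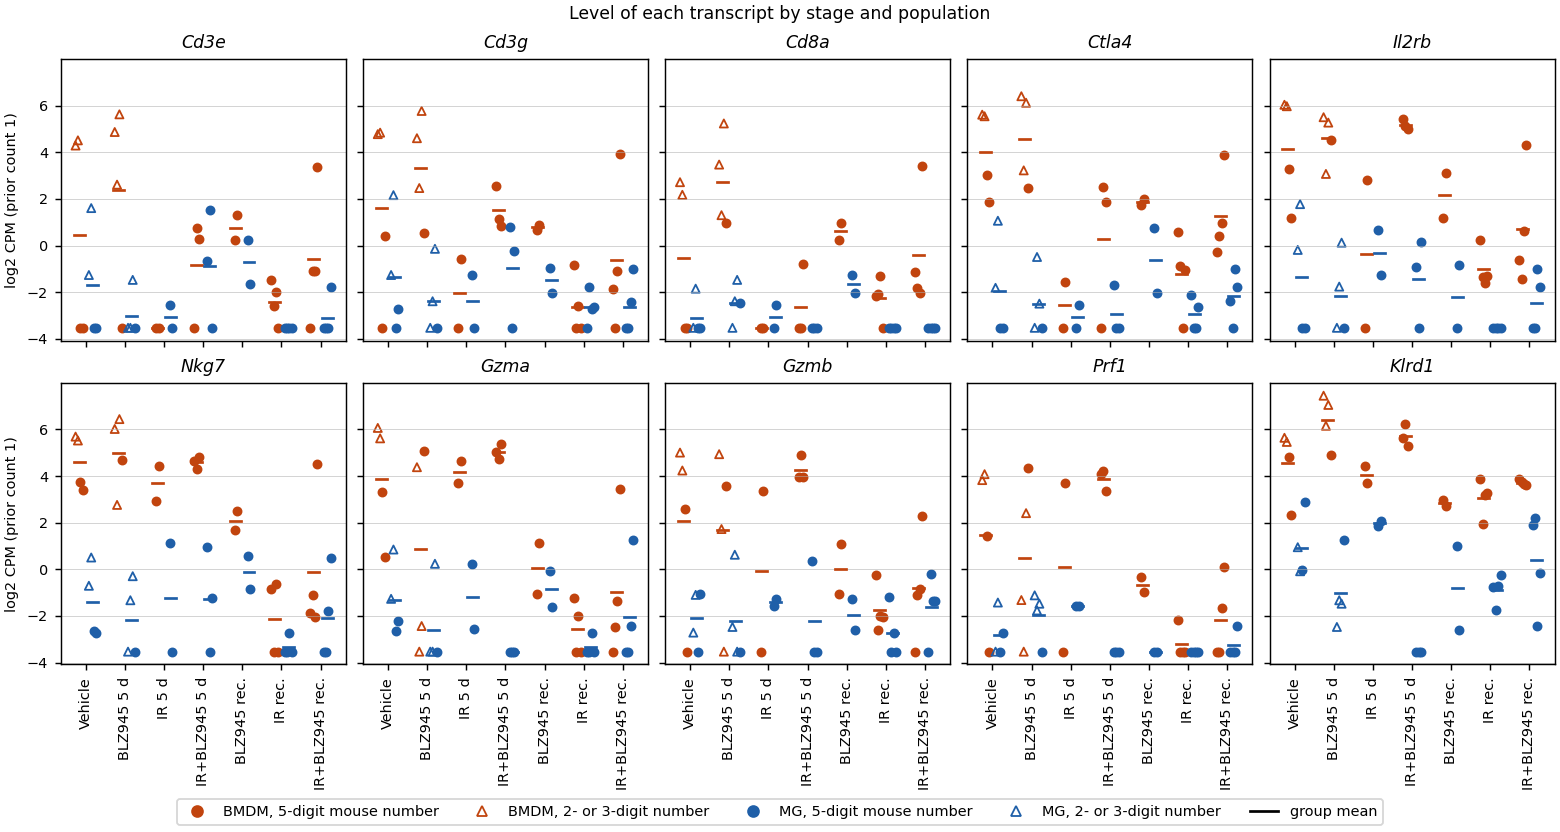
Level of each transcript as log2 CPM with a prior count of 1 (vertical axis) by stage (horizontal axis), 1 point per library and a bar at the group mean; orange is BMDM, blue is MG, and open triangles are mice with numbers of 2 or 3 digits. In vehicle the BMDM triangles lie above the filled BMDM points for all 10 transcripts. After 5 days of BLZ945 they do so for Cd3e, Cd3g, Cd8a, Ctla4 and Klrd1, while for Gzma and Prf1 the filled BMDM point lies above the triangles.

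MG and BMDM were compared within each stage. In vehicle, 8 of the 10 transcripts were lower in MG (5.3% of the 15901 genes tested were), and the median log2 difference of the 10 was -5.70 against 0.09 over all genes. Nkg7 differed by -5.95 ± 1.41 (SE; adjusted p by edgeR 0.00388), Ctla4 by -5.66 ± 1.40 (0.00562) and Klrd1 by -3.51 ± 0.82 (0.00357). Gzma (-5.86 ± 1.71, 0.0219), Gzmb (-6.04 ± 1.73, 0.0192), Prf1 (-6.54 ± 1.78, 0.0145) and Il2rb (-5.12 ± 1.41, 0.0149) also passed, as did Cd8a (0.0426), with 2 counts in all over the 4 MG libraries. Cd3e (adjusted p 0.216) and Cd3g (0.165) did not pass in edgeR's test. Without the 5 mice of short number 1 was called, Ctla4, with a term for the style of the number 4 were, and with the mouse as a replicate block 5 were. It was 5 without BMDM of mouse 41, 3 without MG of mouse 41, 5 without MG of mouse 65966 and 4 without MG of mouse 65967.

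After 5 days of BLZ945 all 10 were lower in MG (10.3% of genes), with a median log2 difference of -6.59 against 0.03 over all genes. Klrd1 differed by -7.07 ± 0.99 (adjusted p by edgeR 1.1e-06), Ctla4 by -7.85 ± 1.58 (0.000256) and Nkg7 by -7.41 ± 1.53 (0.000364). Cd3g (-6.45 ± 1.83, 0.00873) and Cd8a (-6.68 ± 1.82, 0.00755) passed here, and Cd3e (0.00827) did with 3 counts in all over the 4 MG libraries. Without the 5 mice of short number, which leaves 1 mouse in this stage, none was called. With a term for the style of the number 5 were called.

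After 5 days of IR and BLZ945, 5 were lower in MG (7.11% of genes): Nkg7 (log2 difference -4.88 ± 1.57, adjusted p by edgeR 0.0337), Il2rb (-5.95 ± 1.73, 0.0199), Gzma, Prf1 and Klrd1. The last 3 had no count in any of the MG libraries and were at least 277-fold, 117-fold and 422-fold lower there, taking 3 counts summed over those libraries as the floor. All mice of this stage had long numbers. The count was 3 without MG of mouse 65971, a doubted library with the lowest total of the series. The CD3 chains and Cd8a did not pass in this stage.

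With IR at 5 days none of the 10 was called by edgeR (4.13% of genes lower in MG) and DESeq2 called 0. An unadjusted edgeR p under 0.05 was held by 3 of the 10 and by 3690 of the 15901 genes tested. In recurrence after BLZ945 none was called (0.0818% of genes lower) and DESeq2 called 0. An unadjusted edgeR p under 0.05 was held by 2 of the 10 there and by 660 of all genes. In recurrence after IR 1 was lower, Klrd1, with a log2 difference of -4.09 ± 0.90 (adjusted p by edgeR 0.00737; 1.36% of genes). In recurrence after both 1 was lower, Cd8a, at least 38.7-fold against the floor (2.77% of genes). That call rested on single libraries, as 0 were called without BMDM of mouse 68362, which held most Cd8a counts of the stage, and 0 without any 1 of the 4 MG libraries. It was 3 without BMDM of mouse 67169 and 2 without BMDM of mouse 67543.

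Whether the gap between MG and BMDM varied over the 7 stages was tested for each gene with 1 edgeR test of 6 terms. Klrd1 passed (adjusted p 0.00568; 4.31% of genes), and the other 9 did not. The call was lost with the mouse as a replicate block and without the 6 doubted libraries.

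Stages were then compared within BMDM, where all 10 transcripts passed the filter on low counts. For 7 of the 10 the level varied over the 7 stages by edgeR (20.7% of the 14568 genes tested), namely Klrd1 (adjusted p 0.000445), Ctla4 (0.00613), Nkg7 (0.0165), Il2rb (0.0224), Cd8a (0.0402), Prf1 (0.0438) and Gzma (0.0442). Cd3e (0.062), Cd3g (0.0661) and Gzmb (0.108) did not pass. Without the 5 mice of short number 4 were called, Gzma, Prf1, Klrd1 and Il2rb, and with a term for the number style 3 were, Cd3e, Klrd1 and Il2rb. The count was 3 or 4 when BMDM of vehicle mouse 78, of mice 65696 or 65971 with IR and BLZ945, or of any 1 of the recurrent mice 67668, 70696, 68343, 68344, 68345 and 68346 was left out.

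Against vehicle, BMDM of recurrence after IR had 4 lower transcripts (1.02% of genes). Nkg7 stood at 0.260 ± 0.303 CPM (SD, n = 4) against 30.4 ± 21.5 (n = 4) in vehicle, a log2 change of -6.76 ± 1.47 (SE; adjusted p by edgeR 0.0233). The change was -6.08 ± 1.41 for Il2rb (0.0292), -5.47 ± 1.38 for Ctla4 (0.043) and -7.79 ± 2.00 for Gzma (0.0468). For these 4 genes, called on the same levels, no library of recurrence after IR reached the lowest vehicle library. The share of all genes so separated is not given. The other members overlapped, with Klrd1 at 3.75 to 14.4 CPM against a vehicle low of 4.95 CPM. Cd3e, Cd3g, Cd8a, Gzmb and Prf1 each had a vehicle library at 0. All 10 had an unadjusted edgeR p under 0.05, as did 2284 of the 14568 genes tested, in either direction. All 10 changes were negative, and the median log2 change was -6.13 against 0.02 over all genes. DESeq2 called 8, and 8 were called without the doubted libraries, 6 with 1 fit over all libraries and 1 with no filter.

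The mice of recurrence after IR all had long numbers, while 2 of the 4 vehicle mice did not. Without the mice of short number none of the 10 was called in this comparison, and with a term for the style 1 was, Nkg7. The count was 0 without vehicle mouse 41 and without any 1 of the 4 mice of recurrence after IR, 1 without vehicle mouse 78 and 2 without vehicle mouse 65966. Within these groups stage and the style of the number could be separated only by the 2 vehicle mice 65966 and 65967. The style term drew also on the mice given BLZ945 for 5 days, which had numbers of both styles.

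In the other comparisons with vehicle edgeR called none of the 10 in BMDM. After 5 days of BLZ945 5.51% of all genes were called in either direction, 1 member had an unadjusted p under 0.05 and DESeq2 called 1, Klrd1. With 5 days of IR 1.07% of genes were called, 4 members had an unadjusted p under 0.05 and DESeq2 called 3 (Cd3e, Cd8a and Ctla4). After both 0.57% of genes were called, and the numbers of members were 1 and 0. In recurrence after BLZ945 0.0% of genes were called, with 1 and 0 members, and in recurrence after both 0.0275%, with 5 and 0. In the last comparison 1 member was called without BMDM of mouse 68362, and after BLZ945 1 without mouse 65975 and after IR 1 without vehicle mouse 65967. Of all 14568 genes, 3403, 2464, 2217, 1183 and 1504 had an unadjusted edgeR p under 0.05 in these comparisons, in the order above.

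Recurrent tumours were compared with 5-day tumours under the same treatment, which after IR and after both involved long-numbered mice alone. After IR, the log2 change in recurrence was -5.78 ± 1.50 (SE; adjusted p by edgeR 0.0167) for Nkg7 and -7.13 ± 2.04 (0.0274) for Gzma, and Prf1 also passed (0.0392), with 2 counts over the 4 recurrent libraries and 156 over the 2 libraries at 5 days; 5.48% of genes were lower. Gzma stood at 13.0 and 25.3 CPM at 5 days and at 0 to 0.340 CPM in recurrence, without overlap. The same 3 were called without the doubted libraries and by DESeq2. Without BMDM of mouse 65972, 1 of the 2 mice at 5 days, none was called, and the single 5-day library left held no Prf1 count. It was the sign of the fitted Prf1 change that turned there, to 2.20. Without any 1 of the recurrent mice 68344, 68345 and 68346 1 was called.

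After BLZ945, the log2 change of Klrd1 in recurrence was -3.81 ± 0.80 (adjusted p by edgeR 0.00805; 1.65% of genes), and no other member was called. The call was lost without the mice of short number and without either of the 2 recurrent mice. After IR and BLZ945, it was -2.07 ± 0.58 (adjusted p by edgeR 0.0474; 1.92% of genes), from 39.0 to 75.3 CPM at 5 days to 12.3 to 14.6 CPM. Leaving out any 1 of the mice 65696, 65971, 67537, 67169, 67543 and 67947 ended that call, and leaving out mouse 68362 gave 3 calls.

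In MG, 8 of the 10 passed the filter on low counts, and Cd8a and Prf1 did not. Klrd1 alone varied over the stages (adjusted p by edgeR 0.044; 37.4% of the 14534 genes tested). It had no count in MG after 5 days of IR and BLZ945, at least 23.9-fold lower than in vehicle against the floor (adjusted p by edgeR 0.0227; 3.89% of genes lower). In recurrence after both it was at least 16.9-fold higher than at 5 days (0.0137; 11.5% of genes higher), at 3.60, 4.56, 0.102 and 0.813 CPM. The first of these calls was lost without the doubted libraries, without the mice of short number, without MG of vehicle mouse 41 and without MG of mouse 65696; the call over the stages was lost without the doubted libraries, without the mice of short number and without any 1 of the MG libraries of mice 122, 123, 124, 65698, 65972, 65696, 67537, 68343, 68344, 68345, 68346, 67169 and 67543.

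No other stage comparison in MG called a member by edgeR or DESeq2. Of all genes, 0.303% were called after 5 days of BLZ945, 1.99% after IR, 3.53% in recurrence after BLZ945, 4.33% in recurrence after IR and 4.82% in recurrence after both, each against vehicle, and 8.24% and 11.6% in recurrence against 5 days after BLZ945 and after IR. Members with an unadjusted p under 0.05 numbered 5 in recurrence after IR against vehicle, 3 in recurrence after IR against 5 days and 0 in the other 5 comparisons. Of all 14534 genes, 1805 and 3948 had such a p by edgeR in the first and second of these, and 1947 to 3450 in the others. At levels of 0 to 7.43 CPM these comparisons in MG rest on few counts.

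Other genes listed for T and NK cells were read from 4 lists, and which cells held them here was not tested. Of 20 other T cell genes, 12 were lower in MG in the mean over stages (15.4% of genes lower), and 15 in the additive fit (15.7%). Of the 7 not called, 5 had a BMDM stage without a count. The single higher one was Cd5, outside the rule for named genes, at +0.85 ± 0.34 (adjusted p by edgeR 0.0487), a call lost in the additive fit (0.0663), with 0 to 29.0 CPM in MG and 0.480 to 27.7 CPM in BMDM. Cd2, an adhesion receptor, differed by -3.76 ± 0.52 on the log2 scale (SE; adjusted p by edgeR 2.12e-07), Cd4, which macrophages and dendritic cells can also make, by -3.54 ± 0.55 (2.22e-06), Tcf7, a transcription factor of naive and memory T cells, by -4.09 ± 0.65 (2.74e-06) and Lck, the kinase of CD4 and CD8, by -2.55 ± 0.48 (4.32e-05). In vehicle alone 4 of the 20 were lower in MG (5.3% of genes), with a median log2 difference of -3.43. After 5 days of BLZ945 10 were (10.3% of genes), with a median of -5.09.

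Of 14 other NK cell genes, 12 were tested, while Klra4 and Klra8 had no count in any library. In the mean over stages 7 were lower in MG (15.4% of genes lower). The other 5 each had a BMDM stage without a count, for which the fit gave no usable standard error. In the additive fit 10 of the 12 were lower (15.7% of genes), all but Txk and Eomes. Klrk1, the activating receptor NKG2D, differed by -6.17 ± 0.35 (adjusted p by edgeR 7.11e-17) and was above 0 in every BMDM library, from 11.1 to 208 CPM. In BMDM of recurrence after IR it held 141 to 639 counts. Other genes of the list, named after their values were seen, held 0 to 3 (Ncr1), 0 to 1 (Eomes) and 2 to 38 (Klrb1c) there. Tbx21, the transcription factor T-bet (adjusted p 7.98e-07), Klre1, a lectin-like receptor (1.18e-06), and Klra7, a Ly49 receptor (0.000374), were lower in MG too, and no fold is given because each had 1 or more MG stages without a count. In vehicle 6 of the 12 were lower (5.3% of genes), with a median of -5.04 against 0.09 over all genes.

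The NK cell genes did not share 1 pattern over the BMDM mice given BLZ945 for 5 days, and all but Klrk1, Tbx21, Klre1 and Klra7 are named here after their values were seen. Ncr1, an activating receptor, was at 0 in mice 122, 123 and 124, where Cd3e was present, and at 3.43 CPM in mouse 65975, where it was not. Eomes, a transcription factor of NK and memory CD8 T cells, Klra7 and Klrc2 were likewise at 0 in the first 3, at 6.21, 3.57 and 1.86 CPM in mouse 65975. Tbx21 went otherwise, at 0, 16.6, 29.1 and 6.92 CPM in mice 122, 123, 124 and 65975, as did Klrg1, at 0, 2.04, 17.3 and 1.00 CPM. Klre1 stood at 2.41, 1.44, 12.3 and 1.78 CPM, Klrc1 at 0, 0, 3.26 and 0.214 CPM and Klrk1 at 208, 149, 121 and 148 CPM, so these were not lower in all 3 mice with Cd3e counts. In the same order Klrb1c held 129, 0, 0 and 48 counts and Xcl1 0, 0, 28 and 8. BMDM of mice 122 and 124 are doubted libraries.

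Of 9 other cytotoxic effector genes, 7 were tested and 3 were lower in MG in the mean over stages (15.4% of genes lower). They were Ctsw, a protease of cytotoxic cells (adjusted p by edgeR 0.000586), Fasl, a death ligand (0.00153), and the chemokine Ccl5 (-0.89 ± 0.30, 0.0191). Ctsw and Fasl had no count in MG after 5 days of IR and BLZ945. Ccl5, which myeloid cells also make, stood at 2.47 to 555 CPM in MG. Of the 4 not called, 3 (Gzmc, Gzmk and Ifng) had a BMDM stage without a count, and in the additive fit 4 were lower, namely Ctsw, Fasl, Gzmk and Ifng, without Ccl5. Of 9 other genes of regulatory and activated T cells, 4 were lower in MG in the mean over stages (15.4% of genes) and 1 was higher. In the additive fit 6 were lower (15.7% of genes), with Foxp3 and Cd96 added, and 1 was higher. Il2ra, the alpha chain of the interleukin 2 receptor, differed by -5.00 ± 0.41 (8.84e-13), Tnfrsf4 by -5.08 ± 0.52 (2.46e-10) and Tnfrsf9 by -4.35 ± 0.53 (1.29e-08). Pdcd1, the inhibitory receptor PD-1, went the other way, at +2.33 ± 0.43 (3.31e-05), with 102 to 243 CPM in MG of vehicle against 2.67 to 50.8 CPM in BMDM.

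Over the stages within BMDM, 4 of the 20 other T cell genes, 5 of the 12 NK cell genes, 2 of the 7 cytotoxic genes and 3 of the 9 regulatory and activated T cell genes varied (20.7% of genes). In recurrence after IR against vehicle, the log2 change was -1.75 ± 0.43 for Klrk1 (adjusted p by edgeR 0.0369) and -4.81 ± 1.12 for Cd2 (0.029). Skap1, a T cell adaptor of the list that also appears among the nearest patterns below, passed as well (0.0279), with 1 count over the 4 recurrent libraries, and no gene of the cytotoxic or regulatory lists was called.

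Markers of other cell types also differed between the BMDM libraries. The summed level of 8 dendritic cell markers was 790.5 to 1238.9 CPM in vehicle, 2415.9 to 3890.0 CPM in 5-day mice and 76.9 to 502.2 CPM in recurrence, and none of the 8 was at 0 throughout. All 8 were lower in MG in the mean over stages (15.4% of genes), and all 8 varied over stages in BMDM (20.7% of genes). In recurrence after IR 5 of the 8 were lower than in vehicle (1.02% of genes), beside the 4 members. The summed level of 8 neutrophil markers was 600.2 to 2321.2 CPM in the 5 mice of short number and in mice 65696 and 67537, and 3.3 to 80.4 CPM in the other 16, but this difference was that of a single gene, Retnlg. Without Retnlg the sum was 5.66 to 102 CPM in the 5 mice of short number and 0.333 to 71.8 CPM in the other 18, which overlapped, with S100a8 and Mmp8 at 0 in mouse 122. Likewise Klrk1 alone held 59.8% to 95.6% of the summed NK cell genes in BMDM. B cell markers summed to 3.3 to 243.8 CPM over BMDM, with 3 of 7 lower in MG in the mean over stages (15.4% of genes). Mast cell and basophil markers summed to 0 to 25.3 CPM. Macrophage markers summed to 3601.3 to 24666.3 CPM, with 3601.3 to 7613.9 CPM in the 6 of 7 libraries from mice given BLZ945 for 5 days, alone or with IR, that leave out mouse 124 (11188.3 CPM). The part of these other cells in the results was not tested.

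**Figure D3:**
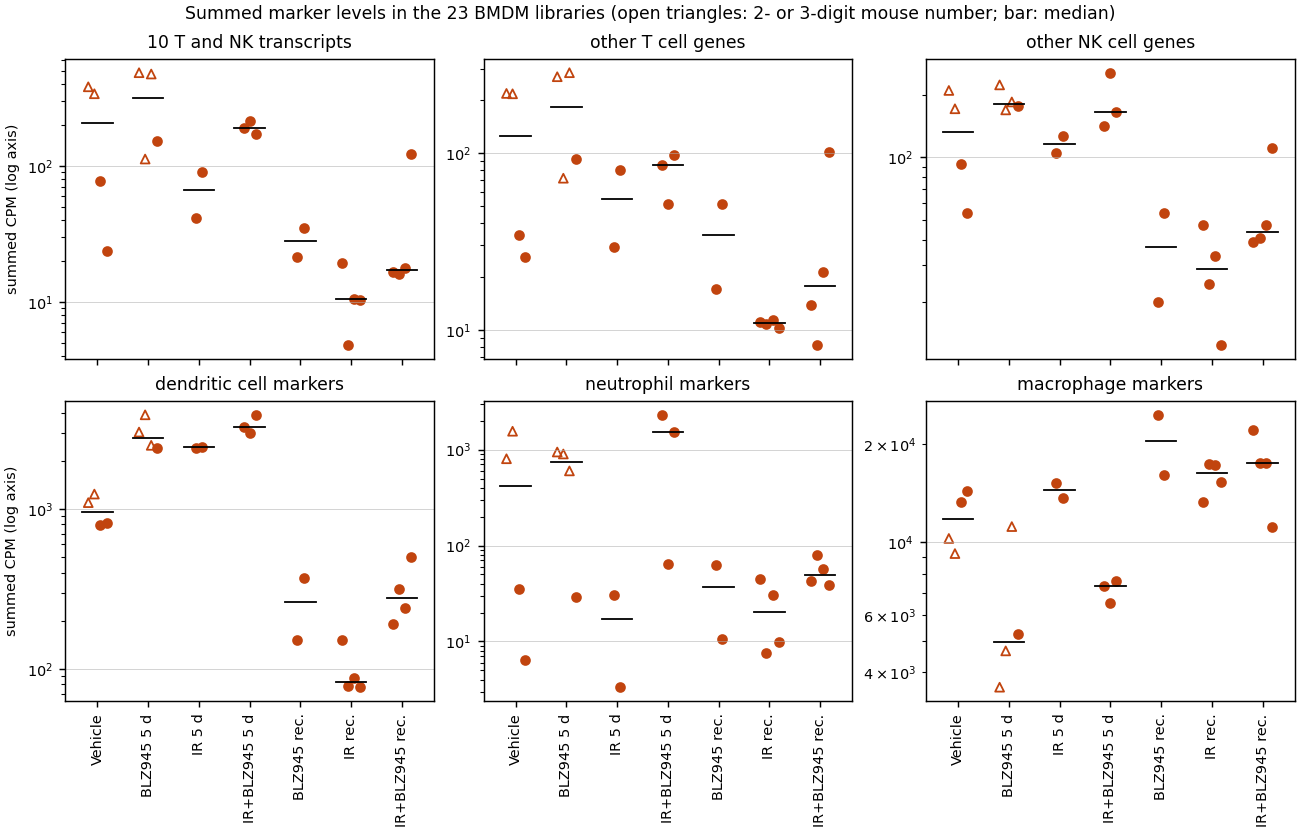
Summed CPM of 6 gene lists (vertical axes, log scale) in the 23 BMDM libraries by stage (horizontal axis), 1 point per library and a bar at the median, with open triangles for mice with numbers of 2 or 3 digits. Dendritic cell markers lie at 76.9 to 502.2 CPM in recurrent tumours and at 790.5 CPM or above in the other stages, and mouse 68362 is highest of its group for the 10 transcripts, the T and NK cell genes and the dendritic cell markers. The 7 highest points for neutrophil markers are those of Retnlg, and most of each sum of NK cell genes is Klrk1.

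Likeness between the 10 transcripts was described by Spearman's rho over the 23 BMDM libraries, which share the stages, the number style and differences in depth. Cd3e was nearest to Cd8a (0.80) and Ctla4 (0.76). Gzma was nearest to Prf1 (0.81) and Gzmb (0.77), and Il2rb to Cd3g (0.87) and Nkg7 (0.86). Klrd1 was nearest to Nkg7 (0.69). Cd3e and Cd8a had values of 0.09 to 0.37 with Gzma, Gzmb and Prf1 and of 0.46 each with Nkg7. Cd3g did not share this, with 0.50 to 0.61 for Gzma, Gzmb and Prf1 and 0.78 for Nkg7, above its 0.75 with Cd3e. After stage means were subtracted Cd3e and Cd8a had 0.27 to 0.50 with Gzma, Gzmb and Prf1, and Cd3e with Cd8a had 0.85. With Nkg7 the centred values were higher than before, at 0.67 for Cd3e and 0.75 for Cd8a. Over the same centred levels Gzma with Gzmb had 0.78, Gzma with Prf1 0.56 and Gzmb with Prf1 0.54, beside 0.55 for Cd3g with Prf1. Il2rb had 0.75, 0.74 and 0.75 with Gzma, Gzmb and Prf1.

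**Figure D4:**
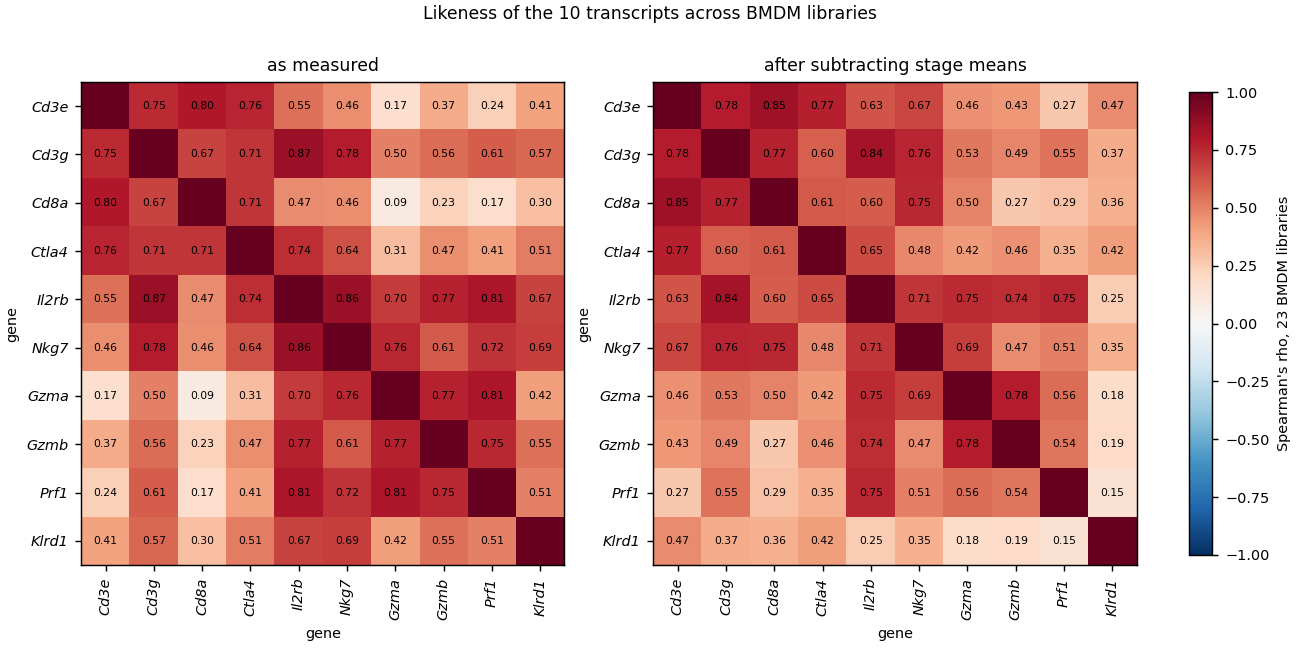
Spearman's rho between each pair of the 10 transcripts over the 23 BMDM libraries (colour and printed value), as measured on the left and after subtracting stage means on the right. On the left Cd3e, Cd8a and Ctla4 reach 0.71 to 0.80 with each other and Gzma, Gzmb and Prf1 reach 0.75 to 0.81, while Cd8a with Gzma is at 0.09 and Cd3g with Nkg7 at 0.78. On the right Gzma, Gzmb and Prf1 are at 0.54 to 0.78.

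The 3 genes most like each member over the same 23 libraries were then taken from all genes tested in BMDM, and each rho is followed by its value after stage means were subtracted. For Cd3g they were Cd3d (0.92, then 0.87), the delta chain of CD3, Skap1 (0.91, 0.83) and Gata3 (0.91, 0.83), a transcription factor of T cells. For Il2rb they were Skap1 (0.94, 0.87), Gimap3 (0.94, 0.93) and Gata3 (0.92, 0.78). Nkg7 was most like Gimap7 (0.92, 0.70), Skap1 (0.87, 0.60) and Mycl1 (0.86, 0.48). Cd8a was most like Cd6 (0.84, 0.87), a T cell surface receptor, Tmem229b (0.83, 0.76) and Cd3e (0.80, 0.85). Cd3e was most like Cxcr6 (0.83, 0.84), a chemokine receptor, Plcd3 (0.83, 0.75) and Ly6a (0.82, 0.72). Prf1 was most like Fcrla (0.90, 0.80), Clnk (0.90, 0.61) and Klrc1 (0.87, 0.78), which encodes NKG2A, a partner of CD94.

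For the remaining 4 members none of the 12 nearest genes was in the T, NK, cytotoxic or regulatory lists, and the same held for Cd3e above. Gzma was most like Gnb4 (0.86, 0.80), Btla (0.83, 0.92) and Ifi205 (0.81, 0.76), and Gzmb most like Scin (0.90, 0.85), Hcn3 (0.88, 0.70) and Abtb2 (0.88, 0.81). Klrd1 was most like Lsr (0.90, 0.71), Ramp3 (0.89, 0.56) and Cytip (0.88, 0.61). Ctla4 was most like Ppm1j (0.88, 0.51), Ccdc102a (0.84, 0.57) and Epcam (0.84, 0.40).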

How the data were processed

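Cells had been sorted from tumours and RNA amplified with Smart-Seq. The authors deposited 1 table of read counts per gene symbol for all libraries, and the values were whole numbers. The submitters' processing notes name CASAVA 1.8, STAR 2.5.0e, HTSeq, DESeq2 and the mm10 build, and the gene annotation and strand setting are not given in the sources used here.

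Here edgeR 4.0.16 (limma 3.58.1, R 4.3.3) was run on the counts with TMM scaling, filterByExpr (minimum count 10, minimum total 15), a robust quasi-likelihood fit and Benjamini-Hochberg adjustment at 0.05. There were 3 fits, with 46 libraries in 14 groups for MG against BMDM and with 23 libraries each for stages within a population, in 29 comparisons. The scripts were tested on simulated data. Alternatives were DESeq2 1.42.0, another scaling, no filter, the mouse as a replicate block, 1 fit for all, and fits without the 6 doubted or single libraries. Terms for the style of the mouse number, fits without those mice and the additive population fit were added after seeing the data. All 10 members were named, with up to 4 genes of each other list by smallest p and the 3 nearest genes by rho, leaving out predicted and clone-named genes and receptor segments. Members and lists were chosen with earlier results of these data known.

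The MG and BMDM libraries of a mouse come from 1 animal, so they are paired, and their deviations from group means correlated by -0.0504 to 0.508 (median 0.168). Levels are CPM per TMM-scaled total, and floors cover counting error only. Gene models were from GENCODE M21 and promoters from RefSeq, where 8 of 10 members matched and Klrd1 and Il2rb did not.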

Additional observations from a re-analysis of the deposited data

Results flagged for a closer look

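Of 80 groups of 4 libraries (10 transcripts in 8 groups), 11 held a library set apart from the other 3 by a gap above Dixon's 95% critical value for its range on the log2 CPM scale. In 8 of the 11 the other 3 libraries all had no count, so that any count at all sets a library apart, and the rate of about 1 in 20 groups at which chance flags untied values does not apply to them. The 3 with counts in other libraries were Cd8a at 3.43 and Nkg7 at 4.53 in BMDM of mouse 68362, recurrent after IR and BLZ945, and Il2rb at 0.23 in BMDM of mouse 68343, recurrent after IR.

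The 8 beside libraries without a count were, in MG, Cd3e at -1.79 and Prf1 at -2.41 in mouse 68362, Cd3e at -1.47 and Gzma at 0.24 in mouse 124 after BLZ945, Cd8a at -1.85 in vehicle mouse 78, and Nkg7 and Gzma at -2.72 each in mouse 68345 recurrent after IR, and, in BMDM, Prf1 at -2.17 in mouse 68343. The gap between MG and BMDM differed over the stages for Klrd1, with an adjusted p of 0.00568 in edgeR's quasi-likelihood test.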

How the results depend on the processing

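Numbers below count members called out of 10, under each alternative in turn. The share of all genes called under each alternative is not given here, so a moved count is no result about the members alone. RLE scaling moved none of the 29 counts by over 1.5 times. With the mouse as a replicate block, MG against BMDM gave 5 in vehicle (8 in the reported fit), 0 in recurrence after both (1) and 0 for the gap across stages (1), and it moved no other of the 9 counts by over 1.5 times. DESeq2 gave 5 for MG against BMDM in recurrence after both (1), 8 for recurrence after IR against vehicle in BMDM (4), 2 for recurrence after both against 5 days (1), and 1 and 3 for 5 days of BLZ945 and of IR against vehicle (0 each). No filter gave 1 for recurrence after IR against vehicle (4), and 1 after IR (3) and 0 after both (1) for recurrence against 5 days. One fit over all libraries gave 1 for 5 days of IR against vehicle in BMDM (0).

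Without the 6 doubted libraries the counts were 4 for MG against BMDM in recurrence after both (1), 0 for the gap across stages (1), 8 for recurrence after IR against vehicle in BMDM (4), 2 for recurrence after both against 5 days in BMDM (1), and in MG 0 over all stages (1) and 0 for IR and BLZ945 at 5 days against vehicle (1). Without the 5 mice of short number, MG against BMDM gave 1 in vehicle (8), 0 after BLZ945 at 5 days (10) and 4 in recurrence after both (1). In BMDM that setting gave 4 over all stages (7), 0 for recurrence after IR against vehicle (4), and 0 after BLZ945 (1) and 2 after both (1) for recurrence against 5 days, and in MG 0 over all stages (1) and 0 for IR and BLZ945 at 5 days against vehicle (1). With a term for the style of the number, MG against BMDM gave 4 in vehicle (8), 5 after BLZ945 at 5 days (10) and 4 in recurrence after both (1). The same term gave 3 over all stages (7), 1 for recurrence after IR against vehicle (4) and 0 for recurrence after BLZ945 against 5 days (1) in BMDM, and 2 over all stages in MG (1). The cause was not tested.

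Leaving out single libraries, MG against BMDM ranged over 3 to 8 for the mean over stages, 3 to 9 in vehicle, 3 to 5 after IR and BLZ945 at 5 days and 0 to 3 in recurrence after both. In BMDM the ranges were 3 to 9 over all stages, 0 to 5 for recurrence after IR, 0 to 1 for recurrence after both and 0 to 1 for 5 days of BLZ945 or IR, each against vehicle, and 0 to 1 after BLZ945, 0 to 2 after IR and 0 to 3 after both for recurrence against 5 days. In MG they were 0 to 1 over all stages and 0 to 1 for IR and BLZ945 at 5 days against vehicle. For Prf1 in recurrence after IR against 5 days in BMDM, a comparison with 2 counts in recurrence, the fitted log2 change ranged from -9.35 without mouse 68343 to 2.20 without mouse 65972. Each of these leaves a group with no Prf1 count, so both values depend on the prior count and are no bound, and the single 5-day library left in the latter is assumed to vary like the other groups. Total counts were alike in MG (median 11601441) and BMDM (median 11840629), and the MG libraries with low totals were those of mice 65971 (3007379) and 68344 (4597962).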
